A study of Mus musculus with 7 samples.

Results

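The nuclear genes of oxidative phosphorylation were examined in mammary glands with and without a deletion of *Tardbp*, the gene of the RNA-binding protein TDP-43. Members were the protein-coding genes whose symbol starts with Nduf, Uqcr or Atp5, consists of Sdh and 1 letter, or consists of Cox, a digit from 4 to 8 and a letter. The rule used symbols and a count filter, not the difference between genotypes. It matched 92 of 37310 gene IDs under 91 symbols, and 88 of them reached 5 counts in 4 or more of the 7 libraries, among 17175 genes tested in all. By structure the tested members comprised 36 subunits of complex I, 4 of complex II, 8 of complex III, 18 of complex IV and 15 of complex V, together with 4 complex I assembly factors. The remaining 3 carry a matching symbol but are not structural subunits (*Atp5s*, *Atp5sl* and *Cox4nb*, of which the last is a part of an endoplasmic reticulum complex). Below the filter were *Cox7b2* and *Cox8c*, with 0 counts in every library, a second gene ID named *Ndufb8*, also with 0 counts in every library, and *Atp5l-ps1*, with 2 to 8 counts.

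The libraries came from whole mammary glands of C57BL/6 mice at lactation day 1. Controls (WT, 3 libraries) had intact *Tardbp* alleles and carried the WAP-Cre transgene. The libraries labelled KO (4) came from *Tardbp* fl/fl mice with the same transgene, in which exons 2 and 3 are deleted where Cre is active. The whey acidic protein promoter drives Cre in luminal epithelial cells from pregnancy to lactation, so that other cells of the gland keep the gene. In such bulk samples, fewer cells of a type and less RNA per cell cannot be told apart.

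Oxidative phosphorylation takes place at the inner mitochondrial membrane. Complexes I and II pass electrons to coenzyme Q, complex III passes them on to cytochrome c, complex IV hands them to oxygen, and complex V uses the proton gradient to make ATP. Nearly all subunits are encoded in the nucleus, made in the cytosol and imported, while a small core of complexes I, III, IV and V is encoded by mitochondrial DNA. Milk synthesis is costly in ATP, and secretory epithelium of the lactating gland is rich in mitochondria.

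Promoters of these genes are known for sites of the nuclear respiratory factors NRF1 and GABPA (also called NRF2). A RefSeq promoter (GRCm38.p6), reaching from 250 bases before to 50 bases after the start, was given for 73 of the 88 members. Some members had more than 1 such promoter, and shares are of genes with a match in at least 1. The NRF1 motif CGCNTGCGC, searched on both strands, occurred in 28.8% of these members. It occurred in 13.2% of tested genes with a promoter and 7.03% of all genes with one. The GABPA motif CCGGAAGT occurred in 6.85% against 7.58% of tested genes and the YY1 motif ATGGCGGC in 9.59% against 4.78%. SP1 (GGGGCGGGG) was matched in 17.8% against 23.2%, and ESRRA (TCAAGGTCA) in 2.74% against 0.337%. A match to at least 1 of the NRF1, GABPA and YY1 motifs, which did not overlap each other in the promoters shown, was found in 41.1% of members and 22.7% of tested genes. The following 120 bases of 5 promoters, 1 per complex, run from 100 bases before the start and show what such matches look like. All 5 hold a match, as only 41.1% of members with a promoter do. Capitals mark NRF1 matches in *Ndufa8* (chr2:36049319-36049438), *Sdha* (chr13:74350221-74350340) and *Atp5k* (chr5:108434380-108434499), a GABPA match in *Cox8a* (chr19:7217597-7217716), and a GABPA followed by an NRF1 match in *Uqcr11* (chr10:80406802-80406921). All 5 lie on the minus strand and are written 5′ to 3′. *Ndufa8* was chosen after its values were seen, for its pair of NRF1 matches.
Ndufa8: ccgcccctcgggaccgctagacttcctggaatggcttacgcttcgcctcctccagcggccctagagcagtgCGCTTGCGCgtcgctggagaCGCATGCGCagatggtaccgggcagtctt
Sdha: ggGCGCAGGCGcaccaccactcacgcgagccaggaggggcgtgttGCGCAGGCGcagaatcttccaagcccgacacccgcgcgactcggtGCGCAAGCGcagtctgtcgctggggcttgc
Uqcr11: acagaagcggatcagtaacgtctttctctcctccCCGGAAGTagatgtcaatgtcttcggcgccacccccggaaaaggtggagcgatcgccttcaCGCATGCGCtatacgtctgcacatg
Cox8a: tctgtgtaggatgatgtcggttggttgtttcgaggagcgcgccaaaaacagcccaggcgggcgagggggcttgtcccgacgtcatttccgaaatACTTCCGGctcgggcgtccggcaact
Atp5k: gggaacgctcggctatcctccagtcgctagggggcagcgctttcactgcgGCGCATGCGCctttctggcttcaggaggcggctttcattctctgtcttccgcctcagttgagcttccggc
The 21 members with an NRF1 match had a median log2 fold change of -0.39 between genotypes, and the 52 with a promoter but no match had -0.41.

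Libraries held 36007737 to 42811337 counts on genes. Milk protein genes took 28.5% to 38.2% of the counts in WT and 13.9% to 24.1% in KO libraries, and levels were therefore scaled by TMM, which sets the bulk of genes equal between libraries. *Tardbp* itself was at 186.7 ± 32.6 CPM in WT and 188.2 ± 28.2 CPM in KO libraries (SD, n = 3 and 4). Its count covers all exons and all cells of the gland, so it does not check the labels. Lymphocyte markers (10 of 10 tested, none at 0) summed to 38.2 to 55.6 CPM in WT libraries and to 406, 65.4, 554 and 123 CPM in KO replicates 1 to 4.

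No member passed the limits that the study set (adjusted p under 0.01, more than 1 log2 unit of change in either direction) in edgeR's quasi-likelihood test, where 0.0% of all genes did. At an adjusted p under 0.05 again no member passed, against 0.00582% of all genes. The lowest adjusted p of a member was 0.0740. The values nevertheless leaned to one side. The fitted log2 fold change of KO over WT was below 0 for 81 of the 88 members and above 0 for 7. Of all 17175 genes tested, 7844 were below 0 and 9331 above. The median of the members was -0.39, while the median of all genes tested was 0.05. That of the 3722 genes with a mean of at least 50 CPM was -0.05, with 2015 below 0 and 1707 above. At an unadjusted p under 0.05, 38 members (43.2%) were lower in KO libraries, against 10.7% of all genes, and 1 (1.14%) was higher, again against 10.7%. The latter was *Cox6a2*, which passed the filter through the KO libraries only. The count of 38 moved with single libraries. It was 11 without WT replicate 1, against 5.89% of all genes, and 66 without KO replicate 4, against 12.4%, and with lymphocyte markers as a covariate it was 4, against 5.07%. Every KO library lay below every WT library for 24 members (27.3%), against 9.62% of all genes, and above for 1 (1.14%), against 9.07%. The changes were small: 86 of 88 log2 fold changes lay between -1 and 1. The median was also -0.39 without *Cox6a2*.

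With these limits, 0 members were called by edgeR's exact test, against 2.48% of all genes, and 0 by DESeq2, against 3.31%. At an adjusted p under 0.05 the exact test called 5 members (5.68%), all lower, against 4.26% of all genes lower, and DESeq2 called 10 (11.4%), all lower, against 5.2%.

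The scale mattered for the direction. As a share of all counts, members took 0.918% to 1.05% in WT and 0.87% to 1.07% in KO libraries. With library size alone as the scale, the median of all genes moved to 0.42 and that of the members to -0.03. Then 4 members were lower and 3 higher at an unadjusted p under 0.05, against 3.05% and 30.8% of all genes. The distance between the members and all genes was -0.44 with TMM and -0.45 with library size alone, and it lay between -0.42 and -0.49 under every other scaling and filter tried. A change of scale shifts all genes by nearly the same amount, so that this distance hardly depends on it, and the sign of a single member does.

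**Figure D1:**
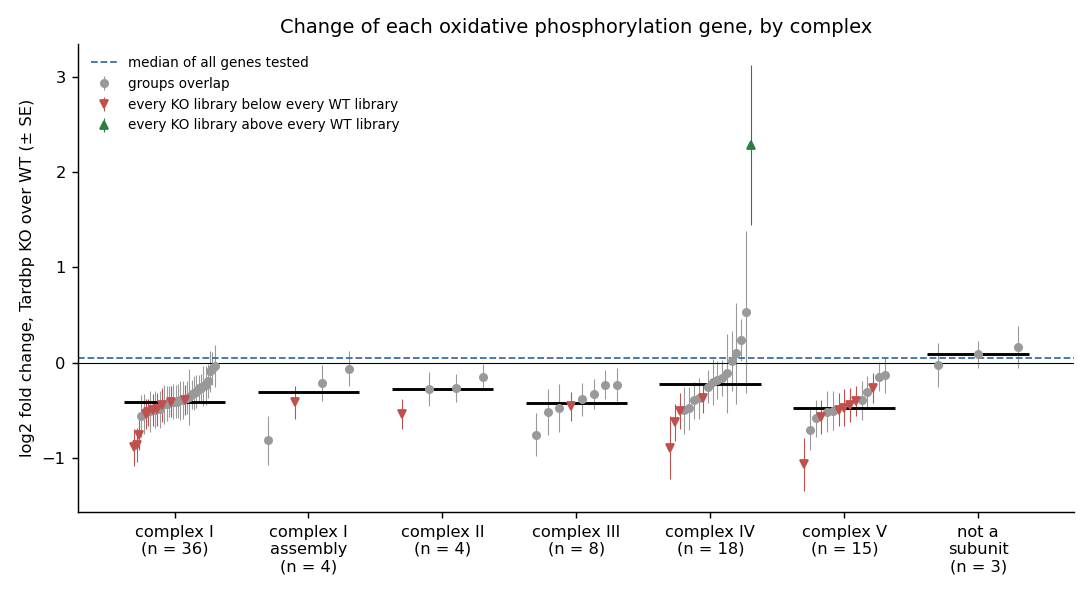
Fitted log2 fold change of KO over WT (vertical axis, error bars SE) of the 88 tested members, grouped by complex along the horizontal axis; black lines are class medians and the dashed line is the median of all genes tested. Complexes I and V lie wholly below 0, with medians of -0.41 and -0.47, and *Cox6a2* in complex IV stands apart at 2.28.

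The KO libraries did not contribute alike. For each library, the deviation of every member's log2 CPM from the WT mean was computed and its median taken. The median deviation was 0.07, -0.12 and 0.07 in WT replicates 1 to 3, and -0.51, -0.39, -0.61 and -0.03 in KO replicates 1 to 4. The median over all genes was no more than 0.07 from 0 in any of the 7 libraries. KO replicates 1, 2 and 3 were thus below every WT library, while KO replicate 4 lay between WT replicates 2 and 3. In KO replicates 1, 2 and 3, 76, 72 and 79 of the 88 members were below the lowest WT library, where 28% to 30% of all genes were, and in KO replicate 4, 26 (29.5%), against 30.2%. WT replicate 2 was itself below both other WT libraries for 65 members (73.9%), against 37.3% of all genes. Without KO replicate 4, 67 members (76.1%) did not overlap between genotypes on the lower side, against 15.0% of all genes, and the median log2 fold change was -0.54. Without WT replicate 2, the count was 51 (58.0%), against 17.6%, and the median -0.45. With any of the other libraries left out it was 24 or 25, and the median stayed between -0.32 and -0.39.

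**Figure D2:**
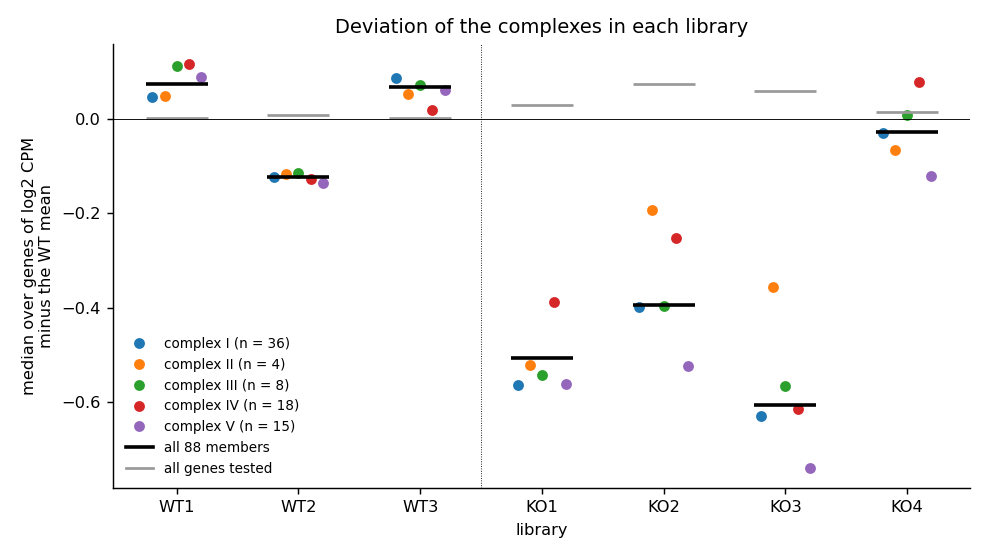
Median deviation of log2 CPM from the WT mean (vertical axis) in each of the 7 libraries (horizontal axis, named by genotype and replicate number), for the subunits of each complex (points), all 88 members (black lines) and all genes tested (grey lines). KO replicates 1 to 3 sit between -0.39 and -0.61 over all members, and KO replicate 4 at -0.03.

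Lymphocyte markers were highest in KO replicates 1 and 3. KO replicate 2, whose marker sum of 65.4 CPM was near the WT range, had a member median of -0.39, and KO replicate 4, with a sum of 123 CPM, had -0.03. Without KO replicates 1 and 3 the median log2 fold change over members was -0.22, with 5 members lower at an unadjusted p under 0.05, against 7.02% of all genes. With the marker level as a covariate it was -0.19, with 4 members lower. These counts are no larger a share of the members than of all genes. Myeloid markers (7 of 8 tested) were all above 0, with a median log2 fold change of 0.62 and 0 at an unadjusted p under 0.05. They summed to 387.2 to 1505 CPM in WT and 1081 to 2638 CPM in KO libraries. KO replicate 2 was at 2182 CPM and KO replicate 4 at 2450 CPM. Luminal markers (8 of 8 tested) summed to 2865 to 3636 CPM in WT and 2949 to 4298 CPM in KO libraries, but they did not move alike. Of the 8, 6 were above 0 and 2 below, with a median log2 fold change of 0.23. The 2 below, *Elf5* and *Prlr*, were lower in every KO library than in every WT library (log2 fold changes -0.59 and -0.70). *Krt8* was higher in every one (0.55). Of all genes, 9.62% were lower and 9.07% higher without overlap. Lane 4 is the only sequencing lane with both genotypes (WT replicate 2, KO replicates 3 and 4), and the median difference within it was -0.18. The share of counts on milk protein genes was also lower in every KO library than in every WT library. The part of the lymphocyte, myeloid, luminal, lane and milk gene differences in the result was not tested.

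In complex I, which oxidises NADH, all 36 tested subunits were below 0, from -0.89 to -0.03 on the log2 scale, with a median of -0.41. At an unadjusted p under 0.05, 19 were lower, and for 10 no KO library reached the WT range, against 10.7% and 9.62% of all genes. *Ndufc2* (chr7:104548513-104556312, coordinates of NCBIM37 here and for all genes), an accessory subunit of the membrane arm, had the lowest value. It was at 206.3, 159.5 and 205.8 CPM in WT replicates 1 to 3 and at 90.87, 86.86, 96.67 and 136.9 CPM in KO replicates 1 to 4. The groups did not overlap, KO replicate 4 being the closest to WT. The log2 fold change was -0.89 ± 0.19 (SE), with an adjusted p of 0.0793, and the exact permutation p was 0.0571, where 0.0286 is the smallest possible. *Ndufa3* (chr7:3568975-3571765), a small accessory subunit of the same arm, was at 106.0, 79.57 and 95.54 CPM in WT and at 47.67, 45.26, 46.7 and 66.28 CPM in KO libraries. Again all KO libraries were below all WT libraries, and 3 of them lay within 3 CPM of each other (log2 fold change -0.86 ± 0.18, adjusted p 0.0740). *Ndufa12*, an accessory subunit of the NADH-oxidising module and named after its values were seen, followed at -0.76 ± 0.16 (adjusted p 0.0753).

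The complex I subunits with the highest levels per kb of exonic length were *Ndufa1*, *Ndufb9* and *Ndufc2*. *Ndufa1*, a small subunit needed for assembly of the membrane arm, was at 265.4 CPM per kb in WT and 202.1 in KO libraries, and *Ndufb9*, of the distal membrane arm, at 244.0 and 173.4. Their groups overlapped through KO replicate 4. At the other end, *Ndufa6*, an accessory subunit of the LYR family, had -0.03 ± 0.22. By module, the median log2 fold change was -0.44 in the NADH-oxidising module (10 genes), -0.41 in the module that reduces coenzyme Q (5), -0.40 in the proximal membrane arm (10) and -0.41 in the distal arm (11). Differences between modules were not tested. The 4 Ndufaf assembly factors, which help to build complex I and do not stay in it, ranged from -0.82 to -0.06. *Ndufaf4* was lowest, at 27.19, 15.4 and 24.55 CPM in WT and 16.88, 9.894, 10.71 and 13.34 CPM in KO libraries, so that KO replicate 1 overlapped WT replicate 2 (adjusted p 0.127). *Ndufaf1* (-0.41 ± 0.17) did not overlap between genotypes. *Ndufaf2* (-0.21 ± 0.19) and *Ndufaf3* (-0.06 ± 0.18) did.

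Complex II, succinate dehydrogenase, is the one complex made wholly of nuclear subunits. All 4 were below 0, with a median of -0.27. *Sdhb* (chr4:140517118-140535108), the iron-sulphur subunit, was at 129.3, 103.2 and 121.0 CPM in WT and at 69.27, 80.35, 76.79 and 97.7 CPM in KO libraries. It was the one subunit of the complex whose groups did not overlap (-0.54 ± 0.16, adjusted p 0.115), 1 of 4, against 9.62% of all genes. The flavoprotein *Sdha* had -0.27 ± 0.15, and the membrane anchors *Sdhc* and *Sdhd* -0.16 ± 0.14 and -0.28 ± 0.18. For *Sdhc* the KO level was 89.8% of WT. The level per kb was highest for *Sdhd*, at 71.7 CPM per kb in WT and 59.1 in KO libraries.

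In complex III, the cytochrome bc1 complex, all 8 tested subunits were below 0, from -0.76 to -0.23, with a median of -0.42. *Uqcr11* (chr10:79865742-79869575), a small accessory subunit, was lowest and had the highest level per kb, 239.2 in WT and 141.7 in KO libraries. Its levels were 182.4, 110.9 and 166.7 CPM in WT and 95.78, 87.62, 65.76 and 114.1 CPM in KO libraries. KO replicate 4 overlapped WT replicate 2, and both groups were spread widely (-0.76 ± 0.23, adjusted p 0.123). *Uqcr10* (-0.52 ± 0.24) and *Uqcrq* (-0.48 ± 0.25), likewise small accessory subunits, overlapped too. *Uqcrc2*, a core subunit named after its values were seen, was the one member of complex III without overlap, at 186.0, 159.5 and 162.2 CPM in WT and 104.5, 136.0, 114.5 and 137.3 CPM in KO libraries. This is 1 of 8 subunits, against 9.62% of all genes. The hinge subunit *Uqcrh* and the Rieske iron-sulphur protein *Uqcrfs1* lay at the upper end, both at -0.23, with SEs of 0.17 and 0.15.

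Complex IV, cytochrome c oxidase, was the least uniform: 13 of 18 subunits were below 0 and 5 above, with a median of -0.23. It holds the members highest per kb of exonic length. *Cox4i1* had 936.3 CPM per kb in WT and 825.7 in KO libraries, *Cox6a1* 883.5 and 768.2, and *Cox8a* 616.3 and 468.1. For *Cox4i1* (chr8:123192190-123198109), a subunit that binds ATP, levels were 618.2, 659.7 and 629.4 CPM in WT and 485.9, 562.5, 464.5 and 729.8 CPM in KO libraries. KO replicates 1 to 3 were below every WT library and KO replicate 4 above every one (-0.18 ± 0.20, adjusted p 0.650). *Cox6a1* (-0.20 ± 0.24), *Cox8a* (-0.40 ± 0.19), *Cox6b1* (-0.25 ± 0.17) and *Ndufa4* (-0.16 ± 0.19), which was long counted with complex I, also overlapped. *Cox7b* (chrX:103211039-103217789), a small membrane subunit, was at 173.3, 123.7 and 148.8 CPM in WT and at 101.5, 87.18, 75.44 and 121.5 CPM in KO libraries, without overlap (-0.62 ± 0.20, adjusted p 0.129). *Cox7a2l*, described as joining complexes III and IV into supercomplexes, a role not examined in these mice, was the most abundant member above 0. It was at 103.8, 171.7 and 123.9 CPM in WT and 120.1, 179.5, 145.5 and 184.5 CPM in KO libraries, with wide overlap (0.24 ± 0.22, adjusted p 0.576).

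**Figure D3:**
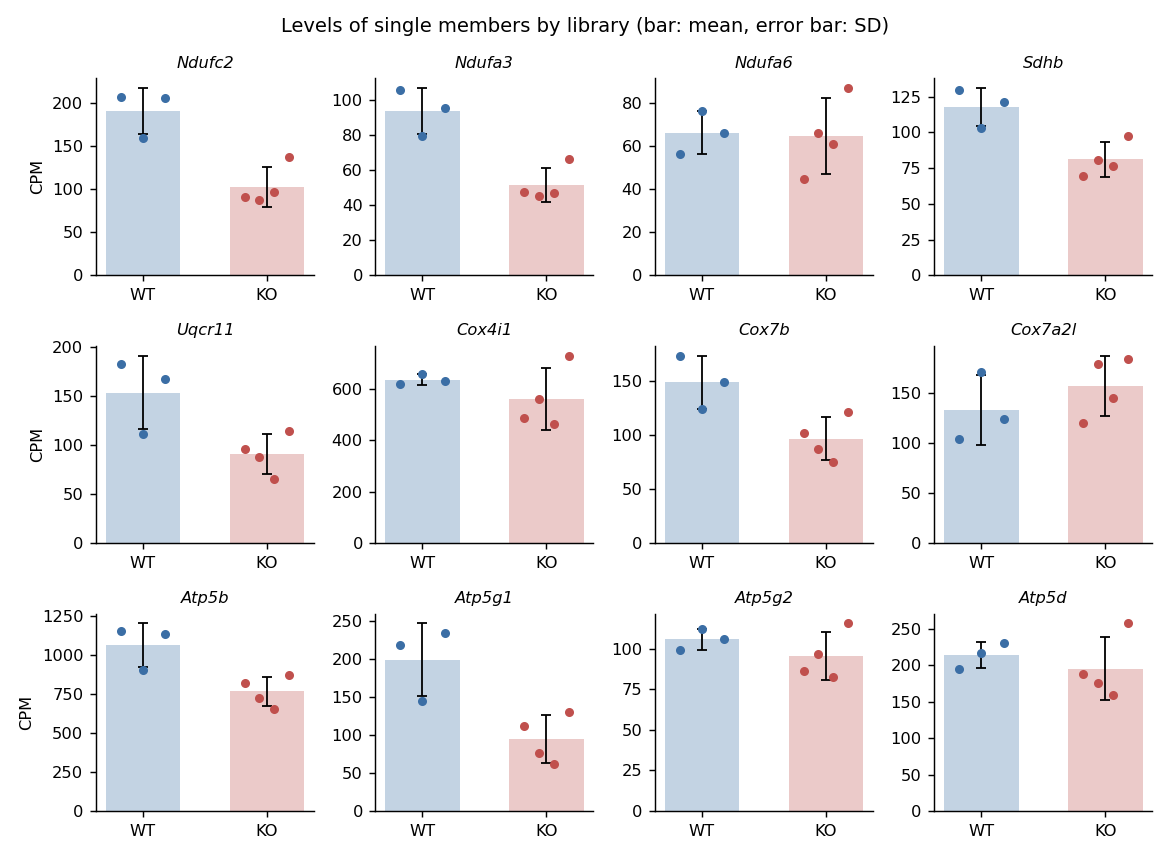
Levels in CPM (vertical axes, from 0) of 12 members in the 3 WT and 4 KO libraries; points are libraries, bars means and error bars SDs. The groups are apart for *Ndufc2*, *Ndufa3*, *Sdhb*, *Cox7b*, *Atp5b* and *Atp5g1* and overlap for the other 6.

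Several complex IV subunits have paralogs that are used in muscle, heart, brown fat or testis, and these were rare in the gland. *Cox4i2*, a paralog of *Cox4i1* known from lung, was at 2.46 CPM per kb in WT and 2.62 in KO libraries. *Cox6b2*, known from testis, was at 3.39 and 3.43, and *Ndufa4l2*, a hypoxia-induced paralog of *Ndufa4*, at 6.35 and 5.87. None differed beyond its spread, with log2 fold changes of 0.10 ± 0.53, 0.02 ± 0.32 and -0.11 ± 0.41. *Cox7a1*, the muscle and heart paralog, was at 4.663, 1.877 and 3.032 CPM in WT and at 1.672, 1.657, 1.72 and 1.814 CPM in KO libraries. All KO libraries lay within a narrow band just below the lowest WT library (-0.89 ± 0.33, adjusted p 0.171, exact permutation p 0.0286). Its ubiquitous counterpart *Cox7a2* was far higher, at 151.4 CPM per kb in WT and 106.6 in KO libraries, and did not overlap either (-0.51 ± 0.19, adjusted p 0.169). *Cox6a2*, the muscle paralog of *Cox6a1*, had 0, 4 and 1 counts in WT and 10, 8, 22 and 6 counts in KO libraries. Every KO library was above every WT library, at a level near the detection limit (log2 fold change 2.28 ± 0.84, adjusted p 0.168). Of 10 skeletal muscle markers, 8 passed the filter, and their summed level was 8.59 to 13.5 CPM in WT and 9.52 to 13.4 CPM in KO libraries. Most of this sum was *Mb*, at 6.50 and 6.53 CPM on average. Of the 8, 5 were above 0 and 3 below, from -0.95 to 1.91, with a median log2 fold change of 0.25. The highest, *Atp2a1*, was, like *Cox6a2*, higher in every KO library than in every WT library. It was at 0.167 and 0.641 CPM on average (log2 fold change 1.91, adjusted p 0.123). No other of the 8 was without overlap between genotypes, and 9.07% of all genes were higher without overlap.

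*Cox8b*, the muscle and brown fat counterpart of *Cox8a*, was at 1.128, 3.903 and 7.015 CPM in WT and 0.4246, 6.719, 9.949 and 6.134 CPM in KO libraries. The KO libraries held both its lowest and its highest level (0.53 ± 0.85, adjusted p 0.765). *Ucp1*, the defining gene of brown adipocytes, was at 0, 0.2085 and 5.648 CPM in WT and 0, 1.496, 3.644 and 4.267 CPM in KO libraries. *Dio2*, also on the list of brown adipocyte markers, was at 0.5265, 0.5958 and 4.132 CPM in WT and 2.176, 1.473, 1.617 and 1.974 CPM in KO libraries. The 2 genes thus did not follow *Cox8b* alike. Of the 6 listed markers 4 were tested, and all 4 were above 0, with a median log2 fold change of 0.16 (0.04 to 1.74). At an unadjusted p under 0.05, 1 was higher, against 10.7% of all genes. For 1, every KO library lay above every WT library, against 9.07% of all genes. The 4 summed to 37.75 to 117.7 CPM in WT and 123.5 to 276.2 CPM in KO libraries. Most of this sum came from tested markers other than *Ucp1* and *Dio2*. *Ucp1* reached no more than 5.648 CPM and *Dio2* no more than 4.132 CPM in any library.

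**Figure D4:**
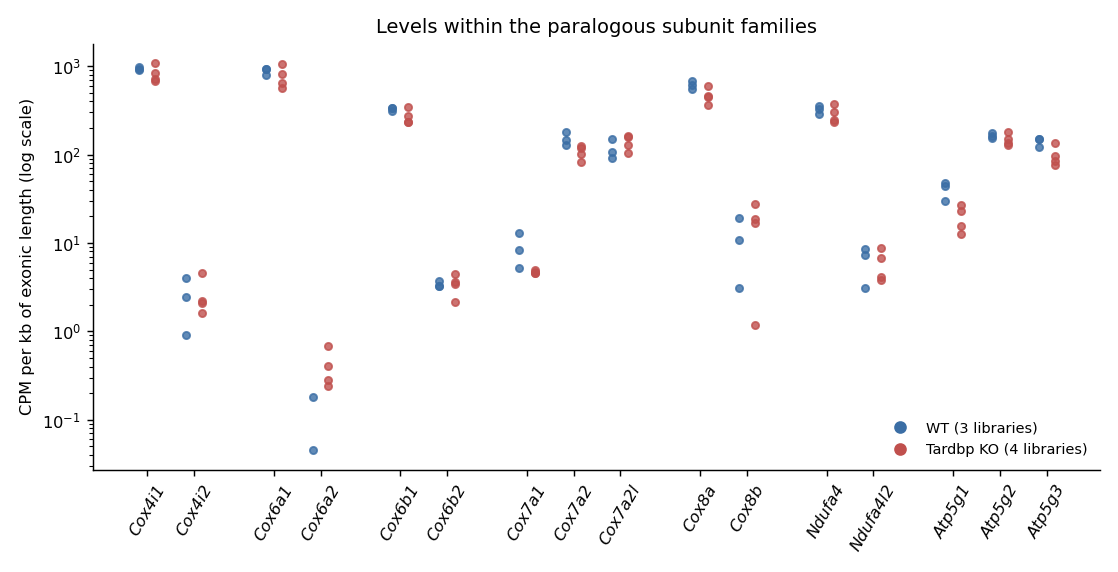
CPM per kb of exonic length (vertical axis, log scale) of paralogous subunits in WT (blue) and KO (red) libraries; each point is 1 library, and the 0 of *Cox6a2* in WT replicate 1 is not drawn. The ubiquitous complex IV paralogs lie above 80 CPM per kb and the tissue-restricted ones below 30.

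In complex V, the ATP synthase, all 15 tested subunits were below 0, from -1.06 to -0.13, with a median of -0.47. At an unadjusted p under 0.05, 10 were lower, and 7 did not overlap between genotypes, against 10.7% and 9.62% of all genes. *Atp5b* (chr10:127520329-127527447), the catalytic beta subunit, had the highest CPM of all members. It was at 1153, 902.6 and 1134 CPM in WT and at 818.5, 721.9, 655.4 and 869.1 CPM in KO libraries, with KO replicate 4 just below WT replicate 2 (-0.47 ± 0.19, adjusted p 0.203, exact permutation p 0.0286). *Atp5a1*, the alpha subunit of the same head, was at 813.9, 705.4 and 807.5 CPM in WT and 562.1, 542.8, 501.5 and 680.3 CPM in KO libraries, also without overlap (-0.44 ± 0.18, adjusted p 0.201). *Atp5l*, a membrane subunit, came next in level per kb, at 233.4 CPM per kb in WT and 177.8 in KO libraries (-0.39 ± 0.20).

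The ring of c subunits, which turns with the passing protons, is encoded by 3 genes for the same mature protein. *Atp5g1* (chr11:95930166-95936984) had the lowest log2 fold change of all subunits. It was at 218.4, 144.4 and 233.5 CPM in WT and at 111.8, 75.79, 62.03 and 130.4 CPM in KO libraries, 47.8% of WT on average, and the groups did not overlap (-1.06 ± 0.28, adjusted p 0.0949, exact permutation p 0.0571). *Atp5g3* was at 326.5, 264.8 and 328.0 CPM in WT and 209.1, 186.4, 166.1 and 296.9 CPM in KO libraries, overlapping through KO replicate 4 (-0.51 ± 0.22). *Atp5g2* was at 106.0 ± 6.48 CPM in WT and 95.5 ± 14.7 CPM in KO libraries (SD, n = 3 and 4; -0.15 ± 0.15). Per kb, *Atp5g2* and *Atp5g3* were at 163.8 and 140.5 in WT libraries and *Atp5g1* at 40.5. Summed over the 3 genes, the level was 66.3% of WT in KO libraries. Medians of the other parts were -0.46 for the head (2 genes), -0.27 for the central stalk (3), -0.45 for the peripheral stalk (4) and -0.59 for the small membrane subunits (3). Among these, *Atp5k*, a subunit at the interface of synthase dimers, was lowest (-0.70 ± 0.22, adjusted p 0.129), and *Atp5d*, of the central stalk, highest (-0.13 ± 0.19).

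Genes of the same pathway that the rule did not take were read from fixed lists. The 13 subunits encoded by mitochondrial DNA had a median log2 fold change of -0.16, and 0 of 13 passed an unadjusted p of 0.05, in a fit that kept the genes of the mitochondrial genome. They ranged from -0.49 (*mt-Co3*) to 0.05 (*mt-Nd4*). The difference from the nuclear members was not tested. Levels of *mt-Co2*, *mt-Co3*, *mt-Atp6* and other genes of that stretch are uncertain, since reads that map to several places were not counted. Of 19 tested genes of mitochondrial protein import, 18 were below 0, with a median of -0.35. At an unadjusted p under 0.05, 8 were lower and 1 higher, where 10.7% of all genes were lower and 10.7% higher. The import genes ranged from *Tomm40*, the pore of the outer membrane (-0.70, adjusted p 0.121), to *Tomm34* (0.53, adjusted p 0.147). Coenzyme Q synthesis had a median of -0.34 with 6 of 12 genes lower and 0 higher at that level, from *Pdss1* (-0.84) to *Coq10a* (0.19). Assembly factors and chaperones had -0.23 with 7 of 26 lower and 0 higher, from *Lyrm7*, which serves the Rieske protein (-0.97, adjusted p 0.112), to *Surf1* (0.19). With lymphocyte markers as a covariate, 5.07% of all genes were lower, and the counts of these lists were not taken. *Cycs*, the electron carrier cytochrome c between complexes III and IV, was at 138.5, 77.31 and 134.2 CPM in WT and at 76.86, 57.87, 49.15 and 80.68 CPM in KO libraries, with KO replicate 4 overlapping WT replicate 2 (-0.82, adjusted p 0.123). *Atpif1*, the inhibitor of the ATP synthase, had 0.20 (adjusted p 0.658).

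The lists of genes that act on mitochondrial DNA or regulate the pathway had medians nearer to 0, with a wide range among the regulators. The 10 genes of mitochondrial DNA expression had a median of 0.03 with 1 lower and 0 higher at an unadjusted p under 0.05, from *Peo1*, the helicase Twinkle (-0.40), to *Top1mt* (0.33). The 14 regulators of mitochondrial biogenesis had -0.08 with 1 lower and 1 higher, from *Ppara* (-1.09, adjusted p 0.197) to *Gabpb1*, a partner of GABPA (0.58, adjusted p 0.106). Of all genes, 10.7% were lower and 10.7% higher at that level. *Nrf1*, named for the motif above, was at 20.19, 19.48 and 19.56 CPM in WT and 26.17, 23.42, 25.04 and 20.96 CPM in KO libraries, without overlap and higher in KO (0.28, adjusted p 0.284). *Esrra* was at 123.1, 187.0 and 154.2 CPM in WT and 88.99, 86.68, 80.43 and 167.6 CPM in KO libraries, again with KO replicate 4 in the WT range (-0.55, adjusted p 0.296). *Nrf1* and *Esrra* were named after their values were seen.

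**Figure D5:**
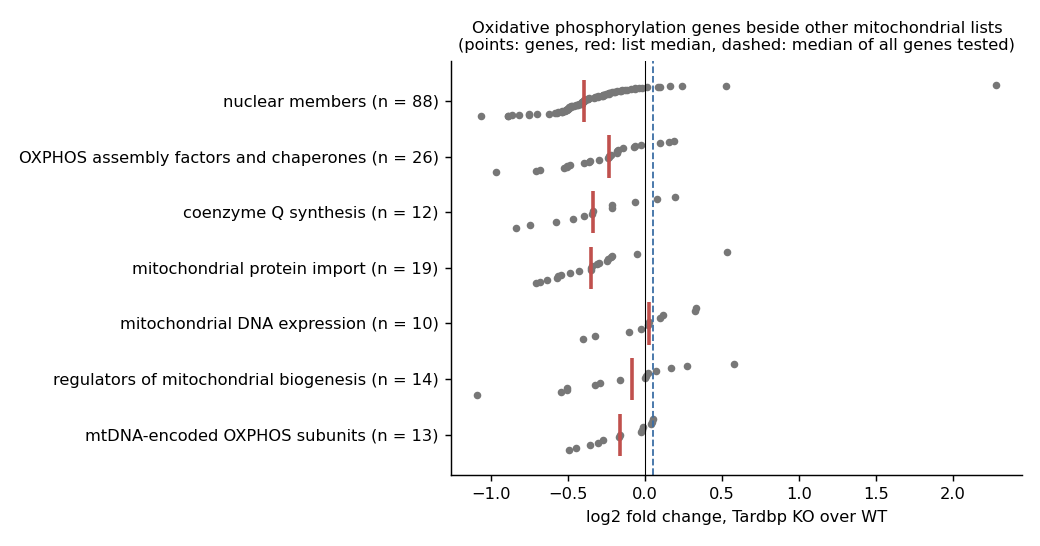
Fitted log2 fold change of KO over WT (horizontal axis) of single genes (points) in the nuclear members and in 6 other mitochondrial lists, with list medians in red and the median of all genes tested as a dashed line. The medians run from -0.39 for the nuclear members to 0.03 for mitochondrial DNA expression.

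Members share features beyond their symbols. Their exonic length had a median of 1265 bases against 3263 in all genes tested. Genes under 2000 exonic bases had a median log2 fold change of 0.01, and the members' median was -0.41 after each library's trend with length was removed. Many members have processed copies in the genome: 41 of 92 had at least 1 other locus covering 80% of the coding sequence at 90% identity, among them *Atp5l* with 16. The 40 tested members with such a copy had a median of -0.42, and the 48 without one -0.32. Counts of the former are uncertain as levels, since reads with several matches were dropped. Exons of 4 tested members overlapped those of other genes over more than 20% of their length, *Atp5o*, *Ndufb6*, *Cox5a* and *Ndufa13*, and the 69 members sharing no exonic base had a median of -0.39. Runs of at least 3 UG dinucleotides, the sequence TDP-43 is known to bind, were present in the longest transcript of 39 of 88 members (44.3%), against 71.5% of all genes with a transcript. Per kb of transcript the members held 2.05 UG in such runs and all genes 2.0. Runs of 6 or more were found in 2 members, *Ndufb2* and *Atp5g1* (2.27%), against 6.33% of all genes.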

How the data were processed

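Paired-end RNA-seq of mammary glands was made by the authors with an Illumina TruSeq kit. Reads were mapped to NCBIM37 with STAR (2.5.2a in the submitters' processing notes, another version in the study's methods) and counted by featureCounts on GENCODE vM1 exons. The deposited values are raw counts per gene, without normalization, in which mates were counted separately, strand was ignored and reads with several matches were left out. The header also names 1 library that has no column, which was not analysed here.

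Genes of the mitochondrial genome (37) and ribosomal genes (580) were removed as in the study's methods, and the 17175 genes reaching 5 counts in 4 or more libraries were tested with edgeR 4.0.16 (TMM, quasi-likelihood test, Benjamini-Hochberg adjustment over all genes; R 4.3.3). DESeq2 1.42.0 and edgeR's exact test were alternatives. CPM are TMM-normalized, with a prior count of 2 for log2 CPM. For single genes, log2 CPM were also compared by an exact permutation test (2-sided, smallest p 0.0286). Levels per kb use the exonic length of the annotation. Near copies of coding sequences were found with minimap2 2.31-r1302. The test was checked on simulated data only for changes larger than those of nearly all members. That check therefore does not show whether changes of the members' size would be called.

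Named in the text are, in each complex, the 3 members highest per kb and those with the 2 highest and the 2 lowest log2 fold changes, the paralog families, members below the filter, and the highest and lowest gene of each list. The values of 1 member that this rule names are not reported here. *Cox7a2l* and *Ndufa4* stood on a list of genes outside the rule and are reported as members. *Ndufa4* and *Ndufa4l2* were placed in complex IV. Members and lists were chosen with earlier results of these data known. Alternatives were other scalings, filters and tests, a replicate block, each library left out, lane 4 alone, removal of length and GC trends, and lymphocyte markers as a covariate. Added after seeing the data were the bias-adjusted form of the test, the fit without the 2 KO libraries highest in lymphocyte markers, and the median without *Cox6a2*. Precision is limited by 3 and 4 libraries per group rather than by depth (36007737 to 42811337 counts). The study counts as many mice as there are libraries in each group, and p-values measure the spread between libraries.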

Additional observations from a re-analysis of the deposited data

Results flagged for a closer look

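Examined for a library far from the other 3 KO libraries were 48 medians and members, the latter those named by the rule and the *Ndufb8* ID above the filter. By Dixon's test, which chance passes in about 1 of 20 groups, 2 were marked. *Ndufa3* was at 66.28 CPM in KO replicate 4, against 45.26 to 47.67 CPM in the other 3. *Cox8b* was at 0.4246 CPM in KO replicate 1, against 6.134 to 9.949 CPM in the others.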

How the results depend on the processing

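No member passed the study's limits under any alternative that gave a test, which lane 4 alone did not. The median over members stayed below 0 under all of them and moved by more than the spread between libraries with library size alone (-0.035) and within lane 4 (-0.18). Less the median of all genes, it moved within lane 4 (-0.18) and with lymphocyte markers as a covariate (-0.23), against -0.44 as reported. By complex, the medians of complexes I to V and of the complex I assembly factors all moved with library size alone. Those of complexes I and II also moved with lymphocyte markers as a covariate, and that of complex III within lane 4. The count of members lower at an unadjusted p under 0.05, 38 as reported, was 4 with library size alone, 4 with the lymphocyte covariate and 5 without the 2 KO libraries highest in these markers (3.05%, 5.07% and 7.02% of all genes). With 1 library left out it ranged from 11 (without WT replicate 1) to 66 (without KO replicate 4), with 38 without WT replicate 2 and 16 to 20 without the others (5.89%, 12.4%, 11.7% and 7.57% to 10.3% of all genes). The correlations of deviations of same-numbered libraries were 0.35, 0.09 and -0.06. Libraries of different numbers were not compared, so these values cannot tell whether replicate numbers pair the libraries. With the replicate block the count was 58, against 11.8% of all genes lower, and the median was -0.52. In this fit 7 members passed an adjusted p of 0.05, against 3.78% of all genes. Replicate number 4 held a KO library only, so that the block took the genotype difference from the other replicate numbers. It is therefore not independent of the fit without KO replicate 4. Without KO replicate 4, 2 members passed that level (0.541% of all genes), and without WT replicate 2, 6 did (5.52%).

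Followed here were 41 tested members, those named by the rule and the *Ndufb8* ID above the filter. None was called as reported, and the sign turned as follows. With library size alone 15 turned to above 0: *Ndufa6* 0.31, *Ndufaf2* 0.15, *Ndufaf3* 0.29, *Sdha* 0.11, *Sdhc* 0.21, *Sdhd* 0.077, *Uqcrfs1* 0.14, *Uqcrh* 0.13, *Cox4i1* 0.17, *Cox6a1* 0.15, *Cox6b1* 0.11, *Ndufa4* 0.19, *Ndufa4l2* 0.28, *Atp5d* 0.22 and *Atp5g2* 0.21, beside a median of all genes of 0.42. With the lymphocyte covariate, *Ndufa6* had 0.30, *Ndufaf3* 0.18, *Sdhd* 0.026, *Uqcrh* 0.078, *Cox4i1* 0.10, *Ndufa4* 0.19, *Atp5d* 0.037, *Atp5g2* 0.069 and *Cox4i2* -0.56. Without the 2 KO libraries highest in lymphocyte markers, *Ndufa6* had 0.21, *Ndufaf3* 0.10, *Cox4i1* 0.024, *Ndufa4* 0.064, *Atp5d* 0.021, *Atp5g2* 0.0053 and *Cox4i2* -0.39. Within lane 4, *Ndufaf2* had 0.043, *Cox6b2* -0.054, *Cox7a2l* -0.068 and *Ndufa4l2* 0.35. *Cox6b2*, at 0.02 as reported, was -0.016 with milk protein genes left out of the scaling, -0.00071 by DESeq2, -0.015 and -0.053 with trends of length and of length and GC removed, and -0.17 with the replicate block, where *Ndufa4l2* had 0.064. With 1 library left out, 5 turned in at least 1 fit and ranged from -0.23 to 0.11 (*Ndufa6*), -0.18 to 0.014 (*Ndufaf3*), -0.30 to 0.64 (*Cox4i2*), -0.17 to 0.18 (*Cox6b2*) and -0.44 to 0.17 (*Ndufa4l2*). The causes were not tested. Members near or below 1 CPM, such as *Cox6a2*, are limited by depth.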
